A study of Mus musculus with 12 samples.

Results

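Livers of male mice that lack somatostatin (XY, genotype sst -/-) were compared gene by gene with livers of normal female mice (XX, genotype sst +/+), to see where the knockout male reached, fell short of or passed the normal female level. The comparison uses 6 of the 12 arrays in the series, 3 from knockout males and 3 from wild-type females. The other 6 arrays, 3 from wild-type males (sst +/+) and 3 from knockout females (sst -/-), entered the estimate of the spread and are given beside the results. All mice were C57BL/6, aged 16 weeks, with free access to food, and each array held liver RNA of a separate mouse. Total RNA from 100 mg of liver was hybridised to Affymetrix 3′ expression arrays, 250 ng per array. The labels give the genotype and nothing further on the allele. Values are log2 RMA values, so a difference of 1 is a 2-fold difference, and every difference below is knockout males minus wild-type females unless it says otherwise. Genes on the X and Y chromosomes were left out of all counts and names.

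Somatostatin is a peptide hormone of the hypothalamus, gut and pancreas that restrains the release of growth hormone by the pituitary. In rodents the male pituitary releases growth hormone in separated pulses and the female pituitary more continuously. Hepatocytes read this pattern through the growth hormone receptor, JAK2 and STAT5B, and many sex-biased liver genes follow it: transporters, cytochromes P450, sulfotransferases and major urinary proteins. Male-biased genes depend on pulses and several female-biased genes are held down by them, in part through the repressor BCL6.

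The Y-linked gene used to tell XY from XX tissue lay above a level of 6 on all male arrays and below it on all female arrays, so sex matched the labels on 12 of 12 arrays. Sst itself gave no check of the genotype, since its level in liver differed by only 0.00 ± 0.11 (SE) between knockout males and wild-type females. Array medians were alike, from 4.94 to 4.97. Wild-type females 1 and 2 stood apart in the control probe sets that compare the 3′ with the 5′ end of a transcript. Their 3′ minus 5′ differences were 0.95 and 0.46 for Gapdh and 2.59 and 1.92 for actin, against -0.09 to 0.17 and 0.82 to 1.43 on the other 10 arrays. The median SD of a gene was 0.117 among knockout males and 0.189 among wild-type females. Values without both of these arrays are given for the 10 genes that differed and for some of the others. A missing value does not mean that the difference stayed. That leaves 1 wild-type female, which the fit assumes to vary like the other groups.

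Few autosomal genes passed the threshold for a difference between the knockout male and the normal female liver. In limma, 10 of 11778 tested autosomal genes differed at an adjusted p below 0.05 (0.0849%), of which 4 were higher (0.034%) and 6 lower (0.0509%) in knockout males. A separate test of equivalence placed 11106 genes (94.3%) within 2-fold of the female level, 1 of them also among the 10, and 663 genes met neither criterion. The median difference over all autosomal genes was -0.01, and 93.7% of them differed by less than 0.5. At an unadjusted limma p below 0.05, 554 genes (4.7%) were higher and 613 (5.2%) lower. In the same fit, 235 genes (2%) differed between wild-type females and wild-type males and 486 (4.13%) between knockout and wild-type males. These comparisons share arrays with the one described here, so their values are set side by side only. The share within 2-fold is not given for them, so the 94.3% alone does not measure how female the knockout male liver was.

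The number of differing genes depended on single arrays. Leaving out knockout male 1, 2 or 3 gave 4, 1 and 4 genes. Leaving out wild-type female 1, 2 or 3 gave 3, 26 and 17. Of the 10 genes, C8b alone passed without knockout male 2, C8a, C8b, Slco1a1 and Tafa2 without knockout male 1, and C8b, Cyp3a44, Dct and Tafa2 without knockout male 3. Without wild-type female 1, C8b, Cyp3a44 and Tafa2 passed, while wild-type female 2 cost only Nudt7 its call and wild-type female 3 only Nudt7 and Slco1a1. Without both wild-type females 1 and 2 it was 6, of which 2 (C8b and Cnmd) belonged to the 10, and the same 2 were all that remained when the 3′ to 5′ difference entered the fit as a covariate. Of 20 alternative analyses, 7 change only the spread, the genes tested or the adjustment and leave every difference as it is. All 10 genes kept their sign in the others. Against wild-type female 3 alone, the differences were -3.62 for Slco1a1, -1.48 for Nox4, -0.59 for Nudt7 and 1.87 for Cyp3a44. They were 1.52 for both Cd36 and Tafa2 and 1.46 for Dct, and those of C8a, C8b and Cnmd are given below. Over all 20, C8b passed the threshold in 20, Tafa2 in 17, Cyp3a44 in 15, and C8a, Cd36 and Nox4 in 14 each. Dct passed in 13, Slco1a1 in 12, Cnmd in 10 and Nudt7 in 7.

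**Figure D1:**
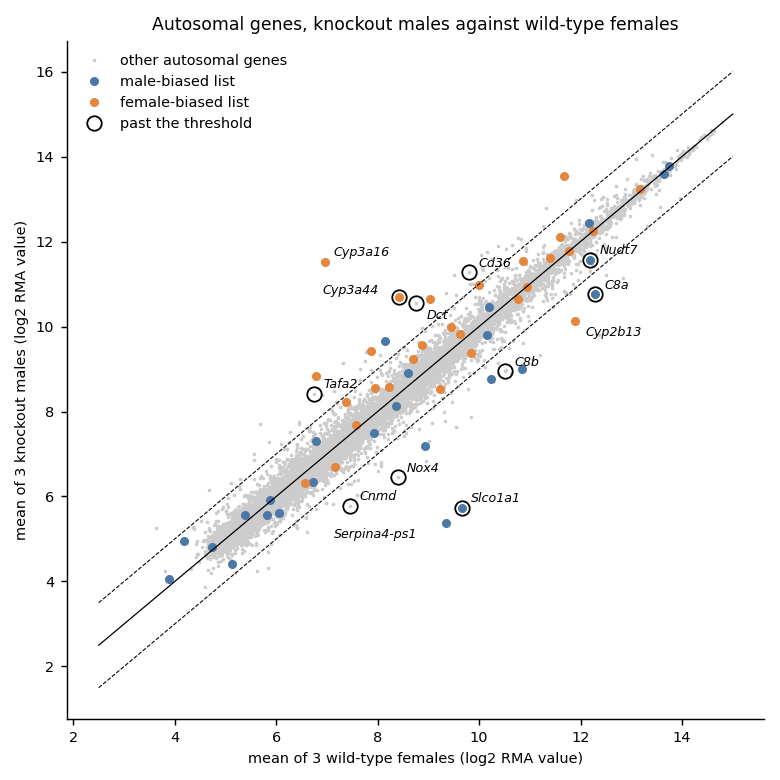
Each point is an autosomal gene, with its mean log2 RMA value in 3 wild-type females on the x axis and in 3 knockout males on the y axis. The solid line marks equal values and the dashed lines a 2-fold difference, between which most points lie; the 10 ringed genes passed the threshold, with Slco1a1 farthest below the line, while Cyp3a16 and Serpina4-ps1 lay as far away and did not pass.

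Of the 6 genes below the female level, Slco1a1 had the largest difference. It encodes an organic anion transporter of the hepatocyte surface and is a known male-biased liver gene. Knockout males 1, 2 and 3 had Slco1a1 levels of 6.82, 5.32 and 5.05, and wild-type females 10.72, 8.90 and 9.35. The groups did not overlap, as was the case for 1990 (16.9%) of all autosomal genes, and the difference was -3.93 ± 0.57 (SE, adjusted p = 0.0209), a 15.2-fold lower level in knockout males. The mean Slco1a1 level was 12.23 in wild-type males and 5.76 in knockout females, so the normal female level lay between the normal male and both knockout levels. With the 3′ to 5′ covariate the Slco1a1 difference was -3.10.

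Nox4, an NADPH oxidase that produces hydrogen peroxide, had levels of 6.53, 6.42 and 6.42 in knockout males and 8.44, 8.81 and 7.93 in wild-type females. The difference was -1.94 ± 0.26 (SE, adjusted p = 0.0127). Wild-type males averaged 10.46 and knockout females 6.18, so here too the normal female level lay between the normal male and both knockout levels. Cnmd, which encodes chondromodulin, a matrix glycoprotein best known from cartilage, was at 5.90, 5.89 and 5.55 in knockout males and 7.16, 7.02 and 8.19 in wild-type females. Its difference was -1.68 ± 0.27 (SE, adjusted p = 0.0425), and with wild-type female 3 alone it was -2.41. It missed the threshold when X- and Y-linked genes were removed before the adjustment. Nudt7, a peroxisomal enzyme that cleaves coenzyme A, was at 11.70, 11.59 and 11.42 against 12.25, 12.18 and 12.16. It differed by -0.62 ± 0.10 (SE, adjusted p = 0.0425) and was the gene that also passed the test of equivalence (adjusted p = 0.00172), a small difference with a small spread. Nudt7 also missed the threshold for a difference without X- and Y-linked genes in the adjustment.

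The remaining pair below the female level belongs to complement. C8a and C8b encode the alpha and beta chains of C8, a part of the membrane attack complex, and are neighbours on chromosome 4 with 0 protein-coding genes between them. C8b was at 9.09, 8.79 and 8.96 in knockout males and 10.67, 10.77 and 10.11 in wild-type females. The groups did not overlap and the difference was -1.57 ± 0.16 (SE, adjusted p = 0.00132), a 2.97-fold lower level. C8a was at 11.05, 10.62 and 10.61 against 12.59, 12.60 and 11.68, a difference of -1.53 ± 0.22 (SE, adjusted p = 0.0183). Without wild-type females 1 and 2 the differences were -1.16 for C8b and -0.92 for C8a, and only C8b passed. Mean levels in wild-type males and knockout females were 11.84 and 9.25 for C8b and 13.09 and 10.73 for C8a.

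The other complement genes did not pass. Of 17 autosomal complement genes tested, 0 were higher, 2 lower and 14 (82.4%, against 94.3% of all autosomal genes) within 2-fold, with a list median of -0.15 against -0.01 over all genes. C9, which polymerises to form the membrane pore, was at 11.74, 11.09 and 11.53 in knockout males and 12.13, 12.59 and 11.93 in wild-type females, a difference of -0.76 ± 0.19 (SE, adjusted p = 0.284), or -0.475 against wild-type female 3 alone. C6, another pore component that is male-biased in mice, differed by -0.44 ± 0.23 (SE), or 0.12 against wild-type female 3 alone, and met the test of equivalence (adjusted p = 0.0176). C8g, the third C8 chain, differed by 0.17 ± 0.09 (SE) and was within 2-fold.

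The promoters of the 10 genes were searched for TTCNNNGAA, the core motif bound by STAT5, which reads the same on both strands. Promoter windows of 300 bases were used (250 before and 50 after the start site of the window, GRCm38.p6). Of the 10 genes, 2 had a match, C8a and Nox4. Of 30 genes with a window among all those named by the rule given below, 7 had a match, against 8.3% of 32851 windows. A gene could have several windows, so shares of genes and of windows are not alike. Both windows are shown, with the match in capitals, as the matches among the 10. The C8a window is chr4:104876349-104876648 on the minus strand, with TTCACTGAA starting at -228 from the window's start site. The Nox4 window is chr7:87246399-87246698 on the plus strand, with TTCTAGGAA starting at -222. These start sites are not the RefSeq gene starts. The Nox4 gene begins at 87244430, ahead of its window, and C8a, on the minus strand, at 104876487. A match describes these letters only and says nothing of binding.
C8a: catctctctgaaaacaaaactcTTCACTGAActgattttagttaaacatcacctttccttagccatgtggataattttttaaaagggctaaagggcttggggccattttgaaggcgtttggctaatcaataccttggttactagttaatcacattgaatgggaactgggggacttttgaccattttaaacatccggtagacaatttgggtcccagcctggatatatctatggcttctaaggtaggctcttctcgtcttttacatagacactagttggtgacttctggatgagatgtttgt
Nox4: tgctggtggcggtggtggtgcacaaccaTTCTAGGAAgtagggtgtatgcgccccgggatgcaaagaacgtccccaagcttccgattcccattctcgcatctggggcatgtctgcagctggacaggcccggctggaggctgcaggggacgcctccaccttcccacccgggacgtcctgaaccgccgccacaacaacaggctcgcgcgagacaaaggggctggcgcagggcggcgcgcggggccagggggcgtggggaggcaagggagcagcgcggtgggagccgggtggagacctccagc

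Of the 4 genes above the female level, Cyp3a44 had the largest difference. It is a cytochrome P450 of the 3A subfamily, which hydroxylates steroids and drugs, and is female-biased in mouse liver. Its levels were 11.21, 10.63 and 10.23 in knockout males and 8.76, 7.66 and 8.82 in wild-type females. The groups did not overlap and the difference was 2.28 ± 0.31 (SE, adjusted p = 0.0133), a 4.84-fold higher level. Wild-type males averaged 7.59 and knockout females 11.08, so both knockout groups lay above the normal female.

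Cyp3a16, a close relative on the same chromosome with 2 protein-coding genes between, had the largest positive difference of the female-biased genes and missed the threshold. It was at 12.02, 11.57 and 11.00 in knockout males, while wild-type females spread from 6.86 and 4.85 to 9.16. The groups did not overlap, and the difference was 4.57 ± 0.76 (SE, 95% interval 2.92 to 6.23, adjusted p = 0.0532). Against wild-type female 3 alone it was 2.365, with an adjusted p of 0.0474. It also passed without wild-type female 2 (3.52, adjusted p = 0.0234) and without wild-type female 3 (5.67, adjusted p = 0.000276). Wild-type males averaged 4.59, below the array median, and knockout females 11.67. Probes of such close relatives may bind each other's transcripts, which was not tested.

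The start regions of Cyp3a16 and Cyp3a44 are shown because the genes share their pattern over the groups and nearly all of these letters. Their windows are chr5:145469674-145469973 and chr5:145805825-145806124, both on the minus strand of GRCm38.p6. Over 296 aligned bases 284 were the same and 12 differed (95.9% identity). Neither window holds TTCNNNGAA.
Cyp3a16: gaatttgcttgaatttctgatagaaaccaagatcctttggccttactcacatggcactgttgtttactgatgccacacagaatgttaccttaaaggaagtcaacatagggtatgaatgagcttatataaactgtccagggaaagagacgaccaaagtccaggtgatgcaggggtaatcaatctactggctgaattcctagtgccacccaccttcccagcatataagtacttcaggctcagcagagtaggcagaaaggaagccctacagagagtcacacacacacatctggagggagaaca
Cyp3a44: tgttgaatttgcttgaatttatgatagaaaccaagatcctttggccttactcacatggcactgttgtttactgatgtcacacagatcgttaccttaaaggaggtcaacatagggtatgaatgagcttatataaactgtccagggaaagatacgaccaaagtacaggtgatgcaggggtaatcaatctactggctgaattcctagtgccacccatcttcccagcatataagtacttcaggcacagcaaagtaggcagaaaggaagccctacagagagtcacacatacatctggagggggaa

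The other 3 genes above the female level have different roles. Cd36, a receptor for the uptake of fatty acids, was at 11.29, 11.41 and 11.13 in knockout males and 9.74, 9.91 and 9.76 in wild-type females. It differed by 1.47 ± 0.20 (SE, adjusted p = 0.0137), and 2 further probe sets of the gene gave 1.69 and 1.71. Wild-type males averaged 8.75 and knockout females 10.52, so the knockout male had the highest Cd36 mean of the 4 groups. Tafa2, a secreted chemokine-like protein, was at 8.47, 8.44 and 8.34 against 6.93, 6.44 and 6.89, a difference of 1.66 ± 0.20 (SE, adjusted p = 0.00661). In wild-type males its mean of 3.78 was below the array median, and in knockout females it was 7.30. Dct, dopachrome tautomerase of melanin synthesis, was at 10.80, 10.62 and 10.23 against 8.27, 8.91 and 9.09, a difference of 1.79 ± 0.26 (SE, adjusted p = 0.0209). Unlike the others, Dct had nearly equal means in the normal sexes (wild-type females minus wild-type males 0.04), and knockout females averaged 10.42.

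**Figure D2:**
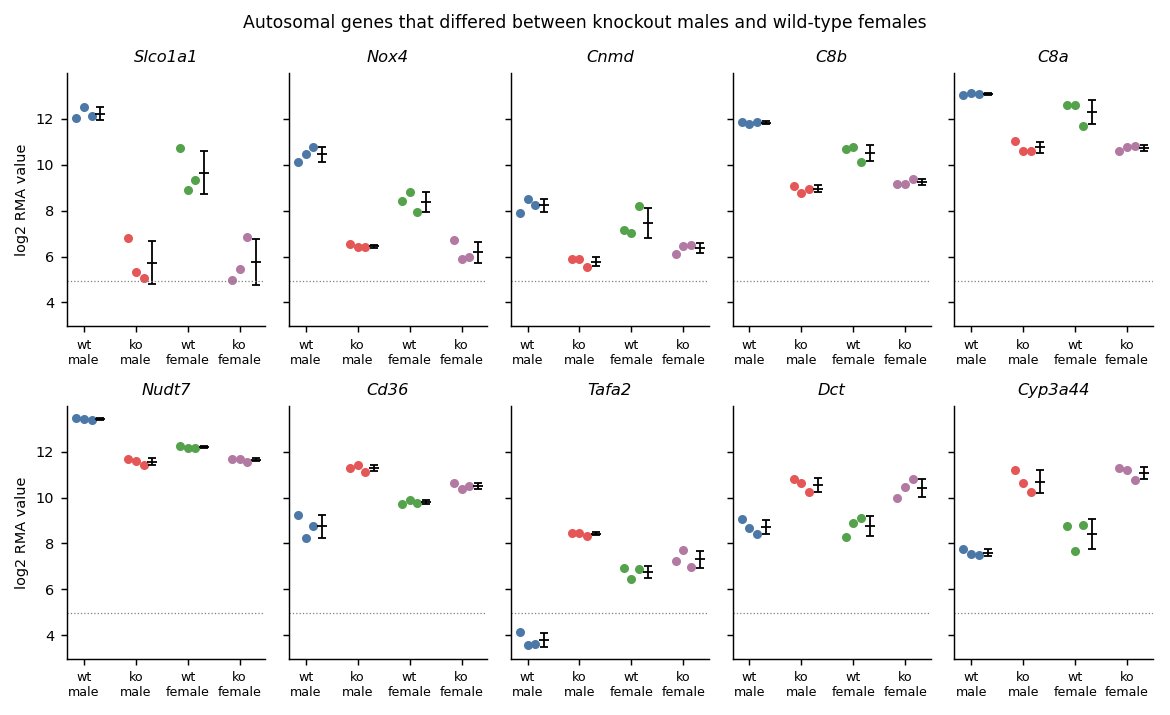
Log2 RMA values of the 10 autosomal genes that differed, with 1 point per array, a bar at the group mean and its SD (n = 3); the dotted line is the typical array median. Knockout males lie below wild-type females in Slco1a1, Nox4, Cnmd, C8b, C8a and Nudt7 and above them in Cd36, Tafa2, Dct and Cyp3a44, with no overlap in any panel.

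The female-biased list shows how far the knockout male took on the normal female pattern. Of its 42 genes, 29 were on the array and 28 were tested. 1 was higher than in normal females (Cyp3a44), 0 were lower, 11 (39.3%, against 94.3% of all autosomal genes) were within 2-fold, and 16 met neither criterion. The median difference was 0.44 against -0.01 over all autosomal genes. At an unadjusted p below 0.05, 9 members were higher and 2 lower, where all autosomal genes gave 4.7% and 5.2%. Listed genes had larger differences, with a median size of 0.535 against 0.132 over all genes, and a larger median SE, 0.344 against 0.148. The number of members past the threshold was between 0 and 3 across the alternatives, with 0 when knockout male 1 or 2 was left out, 2 when wild-type female 2 was and 3 when wild-type female 3 was.

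The matches included a transporter and a sulfotransferase whose normal male level was below the array median. Slc22a26, an organic anion transporter, was at 10.84, 10.56 and 10.57 in knockout males and 10.80, 10.70 and 10.80 in wild-type females. The difference was -0.11 ± 0.12 (SE, equivalence adjusted p = 1.88e-05), while wild-type males averaged 3.67, below the array median. Sult3a1, a sulfotransferase of amines, was at 11.07, 11.35 and 10.40 against 11.34, 10.56 and 10.93, with a wild-type male mean of 3.88, also below the array median. It differed by -0.00 ± 0.34 (SE, equivalence adjusted p = 0.00712). For these genes the groups overlapped, and the large normal sex difference had closed to within 2-fold.

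Cyp2b9, a steroid- and drug-metabolising P450, was at 12.24, 12.09 and 12.02 against 11.60, 11.41 and 11.75, where wild-type males averaged 4.42. Its arrays did not overlap, yet the difference of 0.53 ± 0.26 (SE) met the 2-fold margin, narrowly (equivalence adjusted p = 0.0489, and up to 0.114 when 1 array was left out). Slc22a27, another organic anion transporter, differed by 0.53 ± 0.21 (SE, equivalence adjusted p = 0.0266). Cyp4a14, a fatty acid hydroxylase, differed by 0.05 ± 0.42 (SE, equivalence adjusted p = 0.0238), and Fmo1, a flavin-containing monooxygenase, by 0.00 ± 0.11 (SE, equivalence adjusted p = 9.65e-06). Lifr, Cux2 and Sult1d1 were also within 2-fold, with differences of -0.01, 0.09 and 0.22. Their normal sex difference was small on these probe sets, with wild-type females minus wild-type males at 0.11, -0.02 and -0.01. For Cux2 this depended on the probe set: a dimmer one averaged 4.19 in wild-type males, 7.63 in wild-type females, 8.07 in knockout males and 8.55 in knockout females, a normal sex difference of 3.44.

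Several female-biased genes lay above the normal female without passing the threshold. Sult2a2, a sulfotransferase of hydroxysteroids and bile acids, was at 13.71, 13.42 and 13.51 in knockout males, while wild-type females had 10.32, 11.41 and 13.27. The difference was 1.88 ± 0.67 (SE, adjusted p = 0.467), and against wild-type female 3 alone it was 0.27. Hao2, a peroxisomal oxidase of hydroxy acids, was at 10.98, 11.12 and 10.86 against 9.82, 9.54 and 10.64. It differed by 0.99 ± 0.24 (SE, adjusted p = 0.278), and by 0.35 against wild-type female 3 alone, while without that array it passed at 1.31 (adjusted p = 0.013), so for Sult2a2 and Hao2 the distance lay mostly with wild-type females 1 and 2. Eci3, an isomerase of fatty acid oxidation, was at 8.96, 8.33 and 9.24 against 6.06, 7.26 and 7.05, a difference of 2.05 ± 0.39 (SE, adjusted p = 0.107). Prom1, the membrane protein prominin, differed by 1.57 ± 0.42 (SE, adjusted p = 0.336). Cyp17a1, a hydroxylase and lyase of steroid synthesis, differed by 1.60 ± 0.61 (SE, adjusted p = 0.478), and by 0.30 against wild-type female 3 alone.

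Cyp2b13 was the listed female-biased gene farthest on the male side. It is the neighbour of Cyp2b9 on chromosome 7, with 0 protein-coding genes between. Its levels were 10.34, 10.84 and 9.18 in knockout males and 12.01, 11.73 and 11.90 in wild-type females, with no overlap. The difference was -1.76 ± 0.48 (SE, 95% interval -2.81 to -0.72, adjusted p = 0.348), and it was not past the threshold. Wild-type males averaged 5.12 and knockout females 7.62, so the knockout female lay farther from the normal female than the knockout male did. Serpina6, which encodes the corticosteroid-binding globulin of plasma, was at 12.98, 12.78 and 13.23 in knockout males and 12.28, 12.04 and 12.91 in wild-type females. It differed by 0.59 ± 0.24 (SE, adjusted p = 0.486, equivalence adjusted p = 0.0611), or by 0.09 against wild-type female 3 alone, and stayed undetermined.

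**Figure D3:**
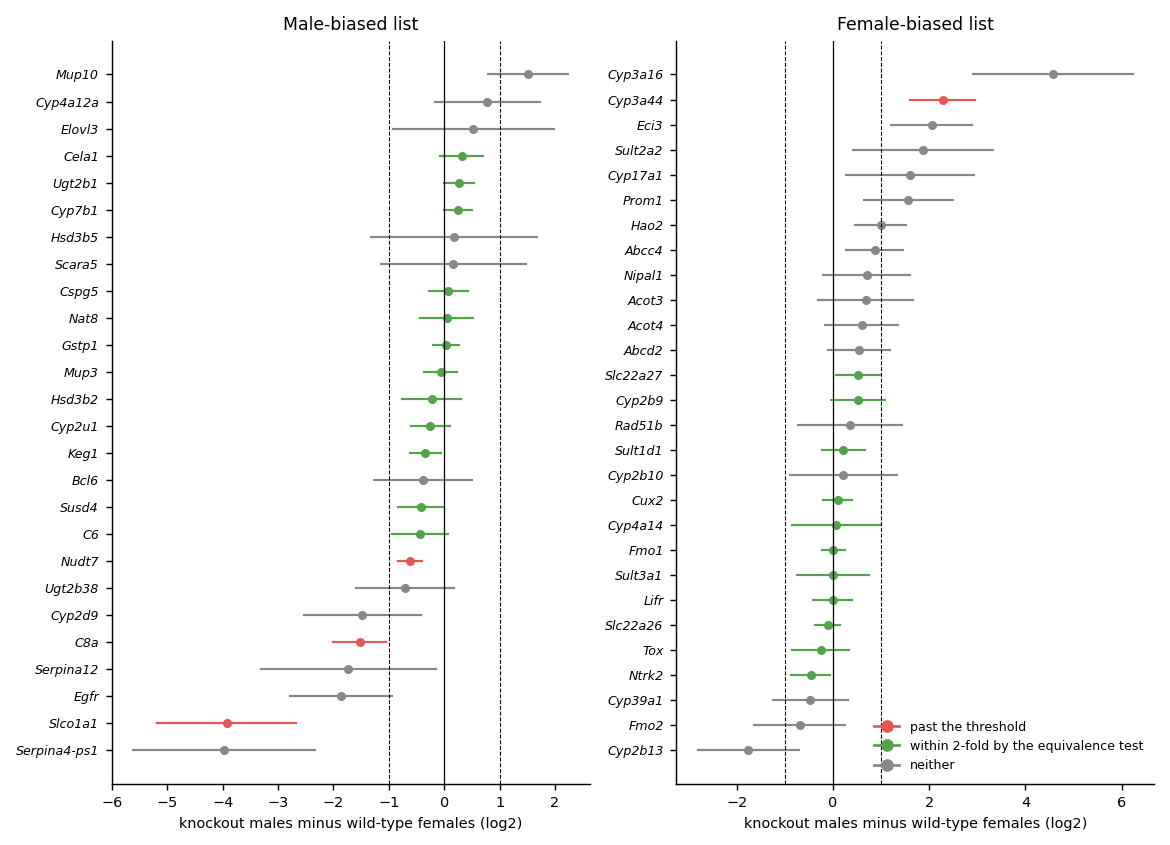
Difference of knockout males minus wild-type females (log2, points) with its 95% interval (lines) for each tested autosomal gene of the male-biased and female-biased lists; dashed lines mark 2-fold. Red genes passed the threshold for a difference (Nudt7 is also within 2-fold), green genes were within 2-fold by the equivalence test and grey genes met neither, among them Cyp3a16, Serpina4-ps1, Mup10 and Cyp2b13.

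The male-biased list tells how far male expression was lost. Of its 32 genes, 27 were on the array and passed the filter, and 26 were autosomal. 0 were higher than in normal females, 3 were lower (Slco1a1, C8a and Nudt7), 13 (50%, against 94.3% of all autosomal genes) were within 2-fold including Nudt7, and 11 met neither criterion. The median difference was -0.24, but 0.01 with the 3′ to 5′ covariate. At an unadjusted p below 0.05, 2 members were higher and 9 lower, where all autosomal genes gave 4.7% and 5.2%. The number of listed genes past the threshold was between 0 and 5 across the alternatives, with 0 when knockout male 2, knockout male 3 or wild-type female 1 was left out and 1 when wild-type female 3 was.

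The closest matches spanned large and small normal sex differences. Cyp7b1, which hydroxylates oxysterols on the way to bile acids, was at 10.68, 10.40 and 10.27 in knockout males and 10.19, 10.13 and 10.27 in wild-type females, against 13.30 in wild-type males. It differed by 0.25 ± 0.12 (SE, equivalence adjusted p = 4.65e-05). Nat8, an acetyltransferase, was at 6.02, 5.82 and 5.93 against 5.70, 5.90 and 6.04, with 10.52 in wild-type males. Its difference was 0.04 ± 0.22 (SE, equivalence adjusted p = 0.000643), so this male-biased gene was at the female level. Gstp1, a glutathione transferase, differed by 0.03 ± 0.11 (SE), Mup3, a major urinary protein, by -0.06 ± 0.14 (SE), Ugt2b1, a glucuronosyltransferase, by 0.27 ± 0.12 (SE) and Keg1 by -0.34 ± 0.13 (SE). All 4 were within 2-fold, with a wild-type female minus male difference of -0.68 for Gstp1, -0.72 for Mup3, -0.98 for Ugt2b1 and -1.71 for Keg1. Cspg5 was within 2-fold at 0.08 ± 0.16 (SE), but its mean in both groups was below the array median.

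Mup10 was the male-biased gene that stayed farthest on the male side. Major urinary proteins carry pheromones, and their near-identical genes may share probes. Mup10 was at 10.05, 9.54 and 9.36 in knockout males against 7.76, 8.13 and 8.54 in wild-type females, and wild-type males averaged 11.02. The groups did not overlap, but the difference of 1.51 ± 0.33 (SE, adjusted p = 0.218) missed the threshold. Knockout females averaged 9.35.

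On the far side of the female level, 4 further genes lay over 2-fold away and did not pass. Serpina4-ps1, a transcribed serpin pseudogene, was at 5.94, 5.25 and 4.93 in knockout males and 10.79, 8.12 and 9.14 in wild-type females, a difference of -3.98 ± 0.75 (SE, adjusted p = 0.107). Egfr, the receptor of epidermal growth factor, was at 9.05, 8.58 and 9.34 against 11.91, 9.91 and 10.74, a difference of -1.87 ± 0.42 (SE, adjusted p = 0.226). Its next brightest probe sets gave -1.79 and -0.72, and the dimmer ones -0.27 to 0.05. Cyp2d9, a testosterone hydroxylase, was at 10.02, 8.41 and 7.84 against 10.69, 10.11 and 9.91, a difference of -1.48 ± 0.48 (SE, adjusted p = 0.428). Serpina12, which encodes vaspin, was at 7.40, 8.23 and 5.97 against 9.54, 8.37 and 8.89, a difference of -1.73 ± 0.72 (SE, adjusted p = 0.487). Cyp2d9 overlapped between the groups and the other 3 did not. Without wild-type female 2, Serpina4-ps1 passed at -4.59 (adjusted p = 0.0467) and Egfr at -2.34 (adjusted p = 0.0366). Knockout females averaged 5.84 for Serpina4-ps1, 10.45 for Egfr and 7.20 for Cyp2d9.

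For some strongly male-biased genes the spread left the match undetermined. Hsd3b5, a steroid dehydrogenase, was at 7.38, 5.17 and 4.14 in knockout males and 6.48, 4.43 and 5.27 in wild-type females, with 12.16 in wild-type males. Its difference was 0.17 ± 0.68 (SE, 95% interval -1.32 to 1.66). Elovl3, a fatty acid elongase, was at 8.52, 7.10 and 6.28 against 5.94, 6.94 and 7.45, with 11.34 in wild-type males, a difference of 0.52 ± 0.66 (SE, 95% interval -0.92 to 1.97), or -0.15 against wild-type female 3 alone. Cyp4a12a, a fatty acid hydroxylase, was at 6.24, 4.50 and 4.12 against 4.18, 3.66 and 4.70, with 11.72 in wild-type males, and its mean in both groups was below the array median. In all 3 genes knockout male 1 had the highest value of the 6 arrays compared.

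**Figure D4:**
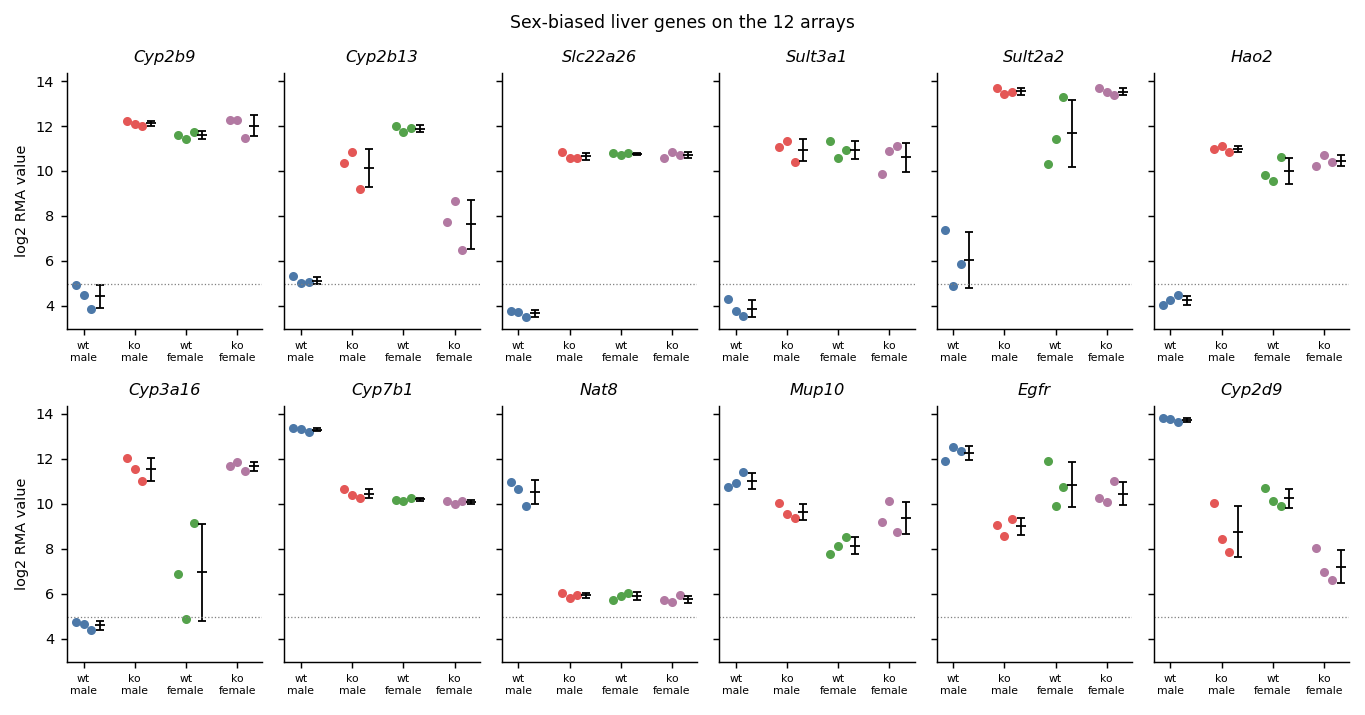
Log2 RMA values of 12 sex-biased genes, with 1 point per array, a bar at the group mean and its SD (n = 3); the dotted line is the typical array median. Slc22a26, Sult3a1, Cyp7b1 and Nat8 have knockout males at the wild-type female level, Cyp2b13 and Mup10 lie on the male side of it, and Cyp3a16, Sult2a2, Hao2, Egfr and Cyp2d9 lie past it with wide spread in wild-type females or knockout males.

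Seen against the normal span between the sexes, the knockout male means lay past the female mean more often than short of it. The span exceeded 2-fold in the listed direction for 20 female-biased and 20 male-biased genes. The knockout male mean was past the female mean for 16 and 12 of them, and between the normal male and female means for 4 and 8. The mean was past the female mean by over 2-fold for 5 female-biased and 5 male-biased genes and short of it by over 2-fold for 1 of each, where 0.475% of all autosomal genes were over 2-fold higher and 0.569% over 2-fold lower. Among these genes, 5 female-biased and 8 male-biased ones were within 2-fold by test, and 0 and 2 passed the threshold for a difference. The wild-type female arrays enter both the span and the difference, and the positions are a description. With the 3′ to 5′ covariate, Bcl6, C6, Ugt2b38 and Cyp2b10 (0.28, 0.002, 0.009 and -0.508) moved from past to short of the female mean. Nat8 and Sult3a1 (-0.015 and 0.328) moved the other way. With that covariate, Sult2a2 and Prom1 (0.924 and 0.892) were no longer over 2-fold past. Against wild-type female 3 alone, Bcl6 and C6 (0.392 and 0.121) moved from past to short of the female value. Elovl3, Nat8 and Sult3a1 (-0.148, -0.118 and 0.013) moved the other way. Against that array, Cyp17a1 and Sult2a2 (0.30 and 0.27) were no longer over 2-fold past, and Fmo2 (-1.26) was over 2-fold short. The male-biased genes over 2-fold past stayed so.

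In the growth hormone and insulin-like growth factor (IGF) axis no member passed the threshold. Of 31 tested members, 0 were higher, 0 lower and 21 (67.7%, against 94.3% of all autosomal genes) within 2-fold, and 2 (Igfbp1 and Socs3) were over 2-fold lower, with a median of -0.12 against -0.01 over all autosomal genes. At an unadjusted p below 0.05, 1 was higher and 4 were lower, against 4.7% and 5.2% of all autosomal genes. Igf1, the main growth hormone target, was at 12.73, 12.75 and 12.67 in knockout males and 12.68, 12.76 and 12.96 in wild-type females, a difference of -0.08 ± 0.12 (SE). Its 3 dimmer probe sets gave -0.52, -0.40 and -0.32. Ghr, the growth hormone receptor, differed by -0.22 ± 0.12 (SE), and by 0.45 with another probe set. Igfals, which holds IGF1 in its plasma complex, differed by 0.33 ± 0.17 (SE). All 3 were within 2-fold.

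Jak2 and Stat5b differed by 0.00 ± 0.13 and 0.25 ± 0.32 (SE) and were within 2-fold. Bcl6, a male-biased repressor, was at 6.36, 6.62 and 6.04 in knockout males and 7.82, 6.40 and 5.95 in wild-type females, with 8.78 in wild-type males. Its difference was -0.38 ± 0.41 (SE, adjusted p = 0.775, equivalence adjusted p = 0.0808), and 0.39 against wild-type female 3 alone, so its side of the female level was not settled. Cux2, the female-biased counterpart, was at 7.75, 7.57 and 7.70 against 7.60, 7.83 and 7.31, and the dimmer probe set gave a difference of 0.44. The feedback inhibitors Socs2 and Socs3 differed by -0.65 ± 0.25 and -1.69 ± 0.59 (SE, adjusted p = 0.478 and 0.462), and by -0.24 and -0.52 against wild-type female 3 alone. For Socs3 the difference lay with wild-type females 1 and 2, whose levels were 9.45 and 9.73 against 7.83 in wild-type female 3 and 7.31, 7.26 and 7.37 in knockout males. Igfbp1, a binding protein that insulin represses, differed by -1.71 ± 0.73 (SE, adjusted p = 0.488).

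Genes of fat and cholesterol synthesis were lower on average than in normal females, without a member past the threshold. Of 18 lipogenic genes, 0 were higher, 0 lower and 7 (38.9%, against 94.3% of all autosomal genes) within 2-fold. Their median was -0.71, and 16 of 18 differences were below 0, where 6161 of 11778 over all autosomal genes were. At an unadjusted p below 0.05, 12 of 18 were lower, where 5.2% of all autosomal genes were. Acaca, the first enzyme of fatty acid synthesis, was at 8.72, 8.74 and 9.29 in knockout males and 10.37, 9.40 and 9.93 in wild-type females, a difference of -0.98 ± 0.24 (SE, adjusted p = 0.278). Fasn, which completes the chain, was at 10.38, 10.07 and 10.92 against 11.54, 10.91 and 11.94, a difference of -1.01 ± 0.33 (SE, adjusted p = 0.428). Scd1, the stearoyl-CoA desaturase, differed by -0.93 ± 0.27 (SE), the regulator Srebf1 by -0.88 ± 0.27 (SE) and Thrsp, a lipogenic regulator, by -1.70 ± 0.67 (SE). The list median stayed between -0.90 and -0.48 in the 20 alternatives. Genes of one pathway vary together across mice, so the count does not stand for 12 independent results.

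Cholesterol synthesis had a median of -0.44 over 16 genes, with 0 higher, 0 lower and 8 (50%, against 94.3% of all autosomal genes) within 2-fold. Of the 16, 15 were below 0, where 6161 of 11778 autosomal genes were. At an unadjusted p below 0.05, 6 were lower, against 5.2% of all autosomal genes. As for lipogenesis, these counts do not stand for independent results. Sqle, squalene epoxidase, differed by -0.91 ± 0.31 (SE, adjusted p = 0.445), and Lss, lanosterol synthase, by -0.90 ± 0.26 (SE, adjusted p = 0.356). The list median was between -0.58 and -0.16 across the alternatives. Of 25 genes of fatty acid oxidation, 23 (92%) were within 2-fold, near the 94.3% of all autosomal genes, 1 was higher (Cd36) and 0 lower, with a median of 0.06. Cpt1a, the entry enzyme of mitochondrial oxidation, differed by 0.03 ± 0.21 (SE), and Ppara, its nuclear receptor regulator, by 0.13 ± 0.39 (SE).

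Genes of drug metabolism and bile acids had no member past the threshold. Of 26 genes of drug metabolism, 0 were higher, 0 lower and 22 (84.6%, against 94.3% of all autosomal genes) within 2-fold, with a median of 0.08. At an unadjusted p below 0.05, 6 were higher and 0 lower (4.7% and 5.2% of all autosomal genes), 2 of the largest being glutathione transferases. Gsta2 was at 11.78, 11.60 and 12.32 in knockout males and 9.41, 11.01 and 10.70 in wild-type females, a difference of 1.53 ± 0.40 (SE, adjusted p = 0.319), and Gstm2 differed by 0.95 ± 0.22 (SE, adjusted p = 0.226). Cyp3a11, the main 3A enzyme of mouse liver, differed by -0.03 ± 0.09 (SE), in contrast to its relatives Cyp3a16 and Cyp3a44. Of 19 bile acid genes, 0 were higher, 0 lower and 16 (84.2%) within 2-fold. Cyp7a1, the rate-limiting enzyme of bile acid synthesis, differed by 0.28 ± 0.54 (SE), or -0.67 against wild-type female 3 alone, and was undetermined. Cyp8b1, which makes cholic acid, was at 10.64, 10.90 and 10.86 against 9.16, 10.04 and 8.86, a difference of 1.45 ± 0.50 (SE, adjusted p = 0.458).

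Of 15 clock genes, 0 were higher and 0 lower by the test, and 5 (33.3%) were within 2-fold. By size, 7 were over 2-fold lower and 1 over 2-fold higher, where 0.569% and 0.475% of all autosomal genes were, and the median was -0.62. Yet at an unadjusted limma p below 0.05, 0 were higher and 1 lower, where all autosomal genes gave 4.7% and 5.2%. The large differences thus came with a wide spread. Per1 was at 5.76, 6.14 and 5.90 in knockout males and 8.76, 6.93 and 8.07 in wild-type females, a difference of -1.98 ± 0.84 (SE, adjusted p = 0.487). Arntl, which peaks in the opposite phase to the Per genes, differed by 1.43 ± 0.70 (SE, adjusted p = 0.515). The labels give the light cycle and no hour of collection, and the part of the clock genes in the lipogenic values was not tested. Of 18 glucocorticoid genes, 0 were higher, 0 lower and 8 (44.4%) within 2-fold, with a median of -0.05. Mt2, a metallothionein, was at 11.71, 11.18 and 12.16 against 9.93, 11.72 and 8.48, a difference of 1.64 ± 0.84 (SE, adjusted p = 0.531), with overlap between the groups, and of 3.21 against wild-type female 3 alone.

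**Figure D5:**
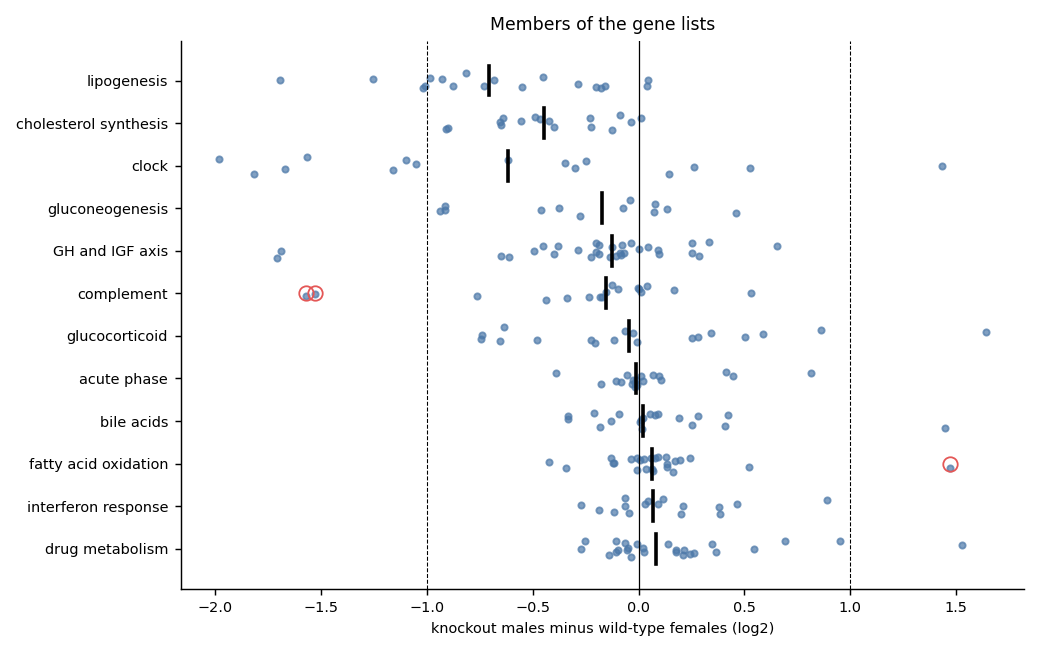
Differences of knockout males minus wild-type females (log2) for the tested autosomal members of 12 gene lists, with 1 point per gene, a bar at the list median, and dashed lines at 2-fold. Ringed points passed the threshold (C8a and C8b in complement, Cd36 in fatty acid oxidation), and the medians of lipogenesis, cholesterol synthesis and the clock lie at -0.71, -0.44 and -0.62.

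Both groups had the expression of whole liver with its usual cell types. All 6 hepatocyte markers tested, 9 of 9 endothelial, 9 of 9 stellate and 10 of 10 T and NK cell markers were within 2-fold. Of 10 autosomal Kupffer cell markers, 9 were within 2-fold, with a median of 0.24. C1qb, a complement C1q chain made by macrophages, differed by 0.68 ± 0.28 (SE, adjusted p = 0.486), or 0.21 against wild-type female 3 alone. Other probe sets of C1qb, only slightly dimmer, gave 0.00 and 0.12. Summed marker levels per array, on the log2 scale, ranged from 13.95 to 14.06 in knockout males and 13.65 to 14.01 in wild-type females for Kupffer cells, and from 16.98 to 17.00 and 16.99 to 17.04 for hepatocytes. In whole tissue, fewer cells of a type and less RNA per cell cannot be told apart.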

How the data were processed

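The deposited values were log2 probe set levels that the authors made by RMA, as the submitters' processing notes state, and were used as they stand. Of 45101 probe sets, 64 were controls, 34945 named 1 gene, 932 several and 9160 none in the platform annotation. By Entrez identifier, 99.4% of the single-gene sets matched RefSeq (GRCm38.p6). Each of 18193 genes was represented by its brightest probe set, and 12158 that exceeded the array median on at least 3 arrays were tested, 11778 of them autosomal, 328 on X or Y and 52 without a chromosome. Array numbers limit the precision, since 3 mice per group were measured.

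All 12 arrays entered 1 model of 4 group means in limma (version 3.58.1, under R version 4.3.3, 8 residual and 3.72 prior degrees of freedom). Benjamini-Hochberg adjustment ran over the 12158 genes, with a threshold of 0.05. Equivalence was tested as the larger of both one-sided moderated tests against a difference of -1 and 1. On simulated data, with 50 genes changed at each of 0.5, 1, 2 and 4 log2, 90% of true 2-fold differences were detected. The share was 32% for true 0.5 log2 differences, and 6% of genes with a true 2-fold difference were called within 2-fold. These shares are not the power in the data, where fewer genes passed and the adjusted threshold was thus harder to reach. Of the 56 and 67 autosomal genes over 2-fold higher and lower, 9 passed. Median SE was also larger for the female-biased (0.344) and male-biased (0.238) lists than over all autosomal genes (0.148). A gene that did not pass may still differ. Other software was data.table (version 1.17.8), Python (version 3.11.15) and, for the plots, matplotlib (version 3.10.9).

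The members of the comparison and the gene lists, which come from general knowledge, were chosen with earlier results of these data known. Named were genes past the threshold without overlap, called list members, up to 6 equivalent genes of each sex-biased list, and a set of sex-biased, growth hormone and check genes named in every case. Genes named outside this rule (among them Mup10, Prom1, Eci3, Egfr, Serpina4-ps1, Serpina12, Cyp17a1, C9, Nat8 and the members of the pathway lists) were chosen after their values were seen. No protein sequences were used here.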

Additional observations from a re-analysis of the deposited data

How the results depend on the processing

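The number of autosomal genes past the threshold, 10 as reported, was 6 with the replicate number as a block (replicate block), 20 with array weights, 2 with the 3′ to 5′ covariate (469 at an unadjusted p below 0.05), 6 without wild-type females 1 and 2, and 55 with a clock covariate chosen after the data were seen. It ranged from 1 to 26 when 1 array was left out, and from 7 to 12 in the other alternatives, with 8 (all but Cnmd and Nudt7) when X- and Y-linked genes were removed before the adjustment. Same-numbered arrays of the compared groups deviated together little (correlations of 0.06, 0.02 and 0.01), and between all pairs of groups, which the block also joins, the correlations ran from -0.33 to 0.39. The numbers were therefore not taken as pairs, and the cause of these moves was not tested. The count within 2-fold, 11106, was 16726 without the filter on dim genes, which tested 17404. With a 1.5-fold margin, also added after the data were seen, 7 male-biased and 4 female-biased genes matched, as the narrower margin implies. Of 109 genes examined singly, 25 changed sign in at least 1 alternative, 12 of them with the 3′ to 5′ covariate and 12 without wild-type females 1 and 2, and 0 of the 25 passed the threshold on either side. Among these, Ghr (0.45 with the probe set of largest variance) was the one whose difference exceeded its SE on both sides. Of the tested differences, 2092 showed no such reversal and kept their side of the threshold, 64 were weaker and 15 stronger. Signal limits Cyp4a12a and Cspg5, whose means in both groups were below the array median, so their true differences may be larger than measured.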

Other observations

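No tested gene of the further lists, on sugar handling, stress, the cell cycle and immune responses, passed the threshold, and the shares within 2-fold were mostly below the 94.3% of all autosomal genes. Of 12 genes of gluconeogenesis and glycogen handling, 0 were higher, 0 lower and 9 (75%) within 2-fold, with a median of -0.17. Pck1, which commits carbon to glucose synthesis, was at 12.42, 12.22 and 12.48 in knockout males and 13.49, 13.08 and 13.35 in wild-type females, a difference of -0.94 ± 0.36 (SE, adjusted p = 0.478). Of 19 acute phase genes, 0 were higher, 0 lower and 16 (84.2%) within 2-fold, with a median of -0.01. Of 16 interferon response genes, 0 were higher, 0 lower and 13 (81.2%) within 2-fold, and Gbp6, a guanylate-binding protein, differed by 0.89 ± 0.35 (SE, adjusted p = 0.485). Of 15 genes of the unfolded protein response, 0 were higher, 0 lower and 10 (66.7%) within 2-fold. Chac1, a glutathione-degrading enzyme of that response, was at 5.57, 6.00 and 5.89 against 7.05, 7.59 and 6.69, a difference of -1.29 ± 0.40 (SE, adjusted p = 0.388). All 10 proliferation genes tested had differences below 0, where 6161 of 11778 autosomal genes did, with a median of -0.50. Of the 10, 0 passed the threshold and 5 (50%) were within 2-fold. All 4 tested genes of the somatostatin system were within 2-fold. By limma at an unadjusted p below 0.05, where all autosomal genes gave 4.7% higher and 5.2% lower, these lists had 0 higher and 4 lower genes for gluconeogenesis, 0 and 0 for the acute phase, 1 and 0 for interferon, 0 and 2 for the unfolded protein response, 0 and 1 for proliferation and 0 and 0 for the somatostatin system.

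Most lymphocyte markers tested, and 2 of 4 neutrophil markers, were within 2-fold of their level in normal females. At an unadjusted limma p below 0.05, 2 of 10 T and NK cell, 2 of 4 B cell and 0 of 4 neutrophil markers were higher. None of these lists had a lower one, where all autosomal genes gave 4.7% higher and 5.2% lower. Ccl5, a chemokine of T and NK cells, was at 7.41, 7.42 and 6.97 in knockout males and 6.56, 6.36 and 6.88 in wild-type females, a difference of 0.67 ± 0.17 (SE, adjusted p = 0.303) that was within 2-fold. The B cell list had 3 of 4 tested markers within 2-fold, with a median of 0.46, and the neutrophil list 2 of 4, with a median of 0.33. All 4 differences were above 0 in each of these 2 lists. Mean levels in knockout males and wild-type females were 6.99 and 6.38 for S100a9 and 6.39 and 5.93 for S100a8. Mpo (5.13 and 4.92) and Cxcr2 (5.03 and 5.00) were near the array median. All 4 cholangiocyte and 3 pancreas markers tested, and the 1 of the adipose and muscle list, were within 2-fold, and the erythroid list had no autosomal marker tested.

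Fabp5, a fatty acid binding protein in none of the lists, was chosen after its values were seen. It was at 9.43, 9.98 and 10.01 in knockout males and 13.23, 12.23 and 11.63 in wild-type females, a difference of -2.55 ± 0.55 (SE, adjusted p = 0.21). Among 586 tested probe sets that name several genes, 0 were higher and 1 lower in knockout males. Among 2741 that name no gene, and whose chromosome is not known here, 6 were higher and 0 lower. The largest of these differences were 6.62, 5.22 and 4.36. X- and Y-linked probe sets were not left out of these last counts. A sex-chromosome difference between XY and XX mice therefore cannot be told apart here from an autosomal one.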
